A study of Mus musculus with 12 samples.

Results

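The replication-dependent histone genes are the clustered genes that supply the bulk of new histone during DNA synthesis. They were taken here as the rows of the gene count table whose names begin with Hist1h, Hist2h, Hist3h or Hist4h, leaving out pseudogene names, of which there were 0. This gave 67 of 34245 genes, with 6 members of family H1, 18 of H2A, 18 of H2B, 12 of H3 and 13 of H4. On GRCm38, 54 lie in the Hist1 cluster on chromosome 13, 10 in Hist2 on chromosome 3, 2 in Hist3 on chromosome 11 and 1 in Hist4 on chromosome 6. All 67 spans in the table were identical to those of GENCODE M21, in which every member is annotated. In all 12 libraries 5 members had no counts: Hist1h2aa, Hist1h2bq, Hist1h2br, Hist1h4m and Hist1h4n.

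The data were poly(A)-selected RNA-seq counts from sorted small intestinal cells of male C57BL/6 Lgr5-GFP mice, in which a GFP reporter knocked into Lgr5 marks stem cells. ISC were the GFP-high cells of crypts, and AE were villus cells with high Epcam and neither CD31 nor CD45. Both were sorted from young mice of 33 weeks on average and from aged mice of 118.7 weeks, with 3 libraries in each of the 4 groups and the reporter shared by all. Library totals ran from 11893817 to 26796461 counts in ISC and from 12728661 to 15473227 in AE, except for young AE replicate 3, which held 110794420.

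The labelled cell types were checked against their markers on CPM, counts scaled to a common library size after TMM correction for composition. The 8 stem cell markers, Lgr5 and Olfm4 among them, summed to between 5812 and 8246 CPM in ISC and 89.5 and 620 CPM in AE. The 12 enterocyte markers summed to between 1738 and 9473 CPM in ISC and 68189 and 108040 CPM in AE. Young AE replicate 2 had the highest stem cell marker sum of the AE libraries, 620 CPM, against 89.5 to 207 CPM in the other 5. The AE gate also held goblet cell transcripts, with a sum over 5 markers of 21839 to 41056 CPM against 1283 to 2046 CPM in ISC. Markers of Paneth cells summed to 542 to 1596 CPM in ISC and 60.3 to 230 CPM in AE. Of 8 T cell markers 1 rose from ISC to AE in young mice and 8 in aged mice, and their sum was 0.800 to 2.70 CPM in aged ISC against 7.32 to 20.8 CPM in young ISC. In AE that sum was 17.5 to 53.9 CPM at both ages together. Enteroendocrine markers summed to 232 to 705 CPM in ISC and 2584 to 6687 CPM in AE, while the sums of tuft, myeloid and stromal or endothelial markers overlapped between the cell types. Trac, a T cell receptor gene, was at 0 in every aged ISC library. The part of these other cells in the histone values was not tested.

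Histones H2A, H2B, H3 and H4 form the core around which DNA is wound, and H1 binds the linker DNA between cores. The genes of these clusters are transcribed mainly in S phase, and their mRNA is unusual in that it normally ends in a short stem-loop bound by Slbp in place of a poly(A) tail. Some members are known to give polyadenylated mRNA as well, in particular in cells that have left the cell cycle. In the intestine, Lgr5+ stem cells divide often, whereas enterocytes of the villus no longer divide. Because the libraries were made from poly(A)-selected RNA, the counts cover what that selection retained, and mRNA without a poly(A) tail is largely lost in such a step.

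The stem-loop was looked for by its letters after the stop codon of the GENCODE M21 transcripts. It was found in 44 of 67 members and not in the annotated transcripts of 23. Some of these 23 models, such as those of Hist1h2bl and Hist1h3h, end at the stop codon. In those no bases past it could be searched, so a stem-loop beyond the model may have been missed. Over all 21901 protein-coding genes, 54 carried a match anywhere in a transcript, a share of 0.247%. That wider search was not limited to the bases after the stop codon. The following stretches of 26 bases on GRCm38 are those of members that the results turn on, written 5′ to 3′ on the strand of the gene, with the stem-loop in capitals.
Hist1h1c, chr13:23739507-23739532, plus strand: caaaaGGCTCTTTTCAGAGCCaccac
Hist2h3c1, chr3:96247322-96247347, plus strand: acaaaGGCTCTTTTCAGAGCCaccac
Hist2h3c2, chr3:96238480-96238505, minus strand: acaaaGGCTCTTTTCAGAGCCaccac
Hist1h2ag, chr13:22042478-22042503, minus strand: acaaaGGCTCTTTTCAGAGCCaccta
Hist1h2bj, chr13:22043633-22043658, plus strand: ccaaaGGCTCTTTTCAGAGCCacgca
Hist1h4i, chr13:22040961-22040986, minus strand: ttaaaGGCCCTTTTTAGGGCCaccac
Hist1h3c, chr13:23745042-23745067, minus strand: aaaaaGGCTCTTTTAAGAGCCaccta
The capitals of the first 5 are the same 16 bases, found in 26 members. They are shared by genes that were higher and by genes that were lower in AE, as given below. The annotated transcripts differed in their length after the stem-loop: 840 bases in Hist1h1c, 1167 in Hist2h3c1, 377 in Hist2h3c2, 330 in Hist1h4i, 74 in Hist1h3c and 23 in both Hist1h2ag and Hist1h2bj. Members with long models were called in both directions. Hist1h2bh with 1214 bases, Hist1h1e with 1153 and Hist1h4j with 385 were each called lower in AE at 1 age or both. The calls of Hist1h2bh and Hist1h4j were lost in a paired fit given below. Of the members with up to 100 bases after the stem-loop, 11 were tested in young and 8 in aged mice. Of these, 0 were called higher at either age, against 27.7% of all genes tested in young and 30% in aged mice. In aged mice 6 of the 8 had 0 counts in every AE library and could not be called higher. The annotated transcripts of Hist1h2bc and Hist2h2be hold no match but do hold the poly(A) signal AATAAA after the stop codon, and so does that of Hist1h1c.

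As a share of all counts, the 67 members took 0.0162% ± 0.000905 (SD, n = 3) of ISC libraries from young mice and 0.0204% ± 0.00350 of those from aged mice. The shares of AE libraries were 0.0224% ± 0.00162 and 0.0223% ± 0.00135. After TMM scaling the sums were 126 ± 9.64 and 154 ± 29.9 CPM for young and aged ISC, against 283 ± 33.5 and 304 ± 22.7 CPM for AE. On both scales the AE libraries were higher in sum than the young ISC libraries, but on the share of all counts the aged ISC and AE libraries overlapped. Most of this sum came from Hist1h1c, a linker histone, and Hist1h2bc, a core H2B. Together these took 47.2% to 60.9% of the member counts in an ISC library and 82.0% to 90.5% in an AE library. Hist1h1c, Hist1h2bc, Hist2h3c1 and Hist2h3c2 are the members that were called higher in AE. As a description of what was left without them, the other 63 members summed from 59.5 ± 6.25 and 66.7 ± 5.42 CPM in young and aged ISC to 33.5 ± 6.84 and 26.8 ± 2.48 CPM in young and aged AE. The genes left out were picked by their calls in these same data, which in part fixes a lower remainder in AE. Of that remainder, Hist2h2be alone held 19.3 and 20.6 CPM in young and aged ISC. It held 6.45 and 4.15 CPM in young and aged AE. More members were measurable in ISC, where 30 to 40 had over 3 counts in a library, than in AE, where it was 12 to 17 apart from the 30 of the deepest library. In bulk samples, fewer cells that hold a transcript and less of it per cell cannot be told apart.

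**Figure D1:**
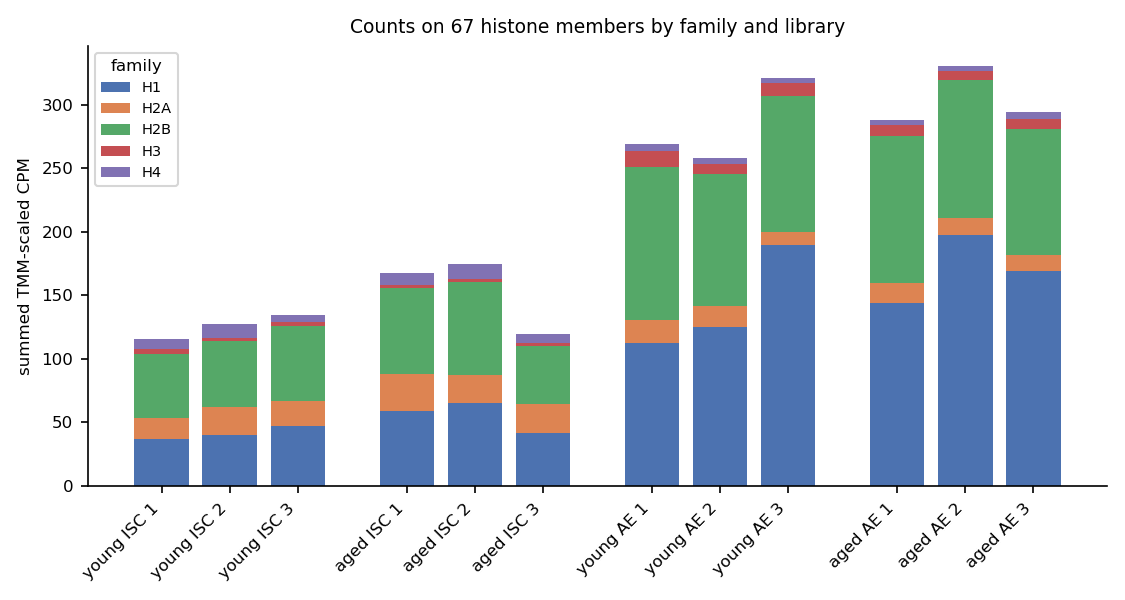
Summed TMM-scaled CPM of the 67 histone members in each of the 12 libraries (x axis), stacked by family. The sums ran from 115.3 to 174 CPM in ISC and from 258 to 330 CPM in AE, and families H1 and H2B made up most of each bar.

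Levels of different members were compared per kilobase of annotated exon. In young ISC, Hist1h2bc had 25.5 ± 5.14 CPM per kb and Hist1h1c 22.8 ± 4.78 CPM per kb, which did not differ beyond their spread. They were followed by Hist2h2be, an H2B gene, at 7.37 ± 0.348 CPM per kb, Hist1h4i, an H4 gene, at 6.80 ± 2.35 CPM per kb, and Hist3h2a, an H2A gene, at 5.89 ± 0.838 CPM per kb. Hist2h2be and Hist1h4i lay within their spread of each other. In aged AE the order began with Hist1h1c at 108 ± 17.1 CPM per kb and Hist1h2bc at 87.9 ± 7.86 CPM per kb, whose spreads met, and then Hist3h2a at 5.74 ± 1.08 CPM per kb, Hist1h4i at 3.73 ± 1.79 CPM per kb, Hist2h3c1 at 3.47 ± 0.0785 CPM per kb and Hist2h2be at 1.58 ± 0.179 CPM per kb. The 2 most abundant members were thus the same in both cell types, while Hist2h2be stood after Hist2h3c1 in AE and before it in ISC.

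AE were compared with ISC at each age, on genes with 10 or more counts summed over its 6 libraries, by edgeR's quasi-likelihood test and an FDR threshold of 0.05. In young mice 42 members passed the filter on counts and 25 did not, and in aged mice 39 passed and 28 did not. Because a member can pass through the group in which it is high, the counts over tested members are a description. In young mice 4 tested members were higher in AE, 9.52% of them against 27.7% of all genes tested, and 10 were lower, 23.8% against 25.4%. In aged mice 4 were higher, 10.3% against 30% of all genes tested, and 12 were lower, 30.8% against 34.1%. Of these 12 lower members, 8 had 0 counts in every aged AE library and passed the filter through ISC alone. The shares lower in AE were near those of all genes and the shares higher were below them. The median log2 difference of the tested members was -1.26 in young mice, against 0.15 over all genes tested, and -1.71 in aged mice, against -0.13. In aged mice 12 tested members had 0 counts in every AE library. For a second median these were put at the bound that 3 counts per library allow. Those whose ISC mean lay under 3 counts per AE library, Hist1h3c among them, have no such bound and were put at a log2 difference of 0. That median was -0.82. Of the 42 members tested in young mice, 18 were lower and 4 higher in AE without overlap of the groups, against 30.7% and 32.3% of all genes. Of the 39 tested in aged mice these were 19 and 4, against 36.4% and 33.4%.

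Libraries of ISC and AE that share a code number were paired in a second fit with a replicate block. It called 9 members in young mice in place of 14, with the same 4 higher, and 12 in place of 16 in aged mice. In young mice Hist1h2ak, Hist1h2bb, Hist1h2bh, Hist1h3g, Hist1h4j and Hist2h2bb lost their call in it, and Hist1h2ag was not called without it, at an FDR of 0.0530. In aged mice Hist1h2bb, Hist1h2bh, Hist1h3a and Hist1h3c lost theirs. Without young AE replicate 3, the deepest library, 9 members were called in young mice, and without young ISC replicate 1 or 2, 7 were. All 4 calls of higher members were kept in each of these fits.

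**Figure D2:**
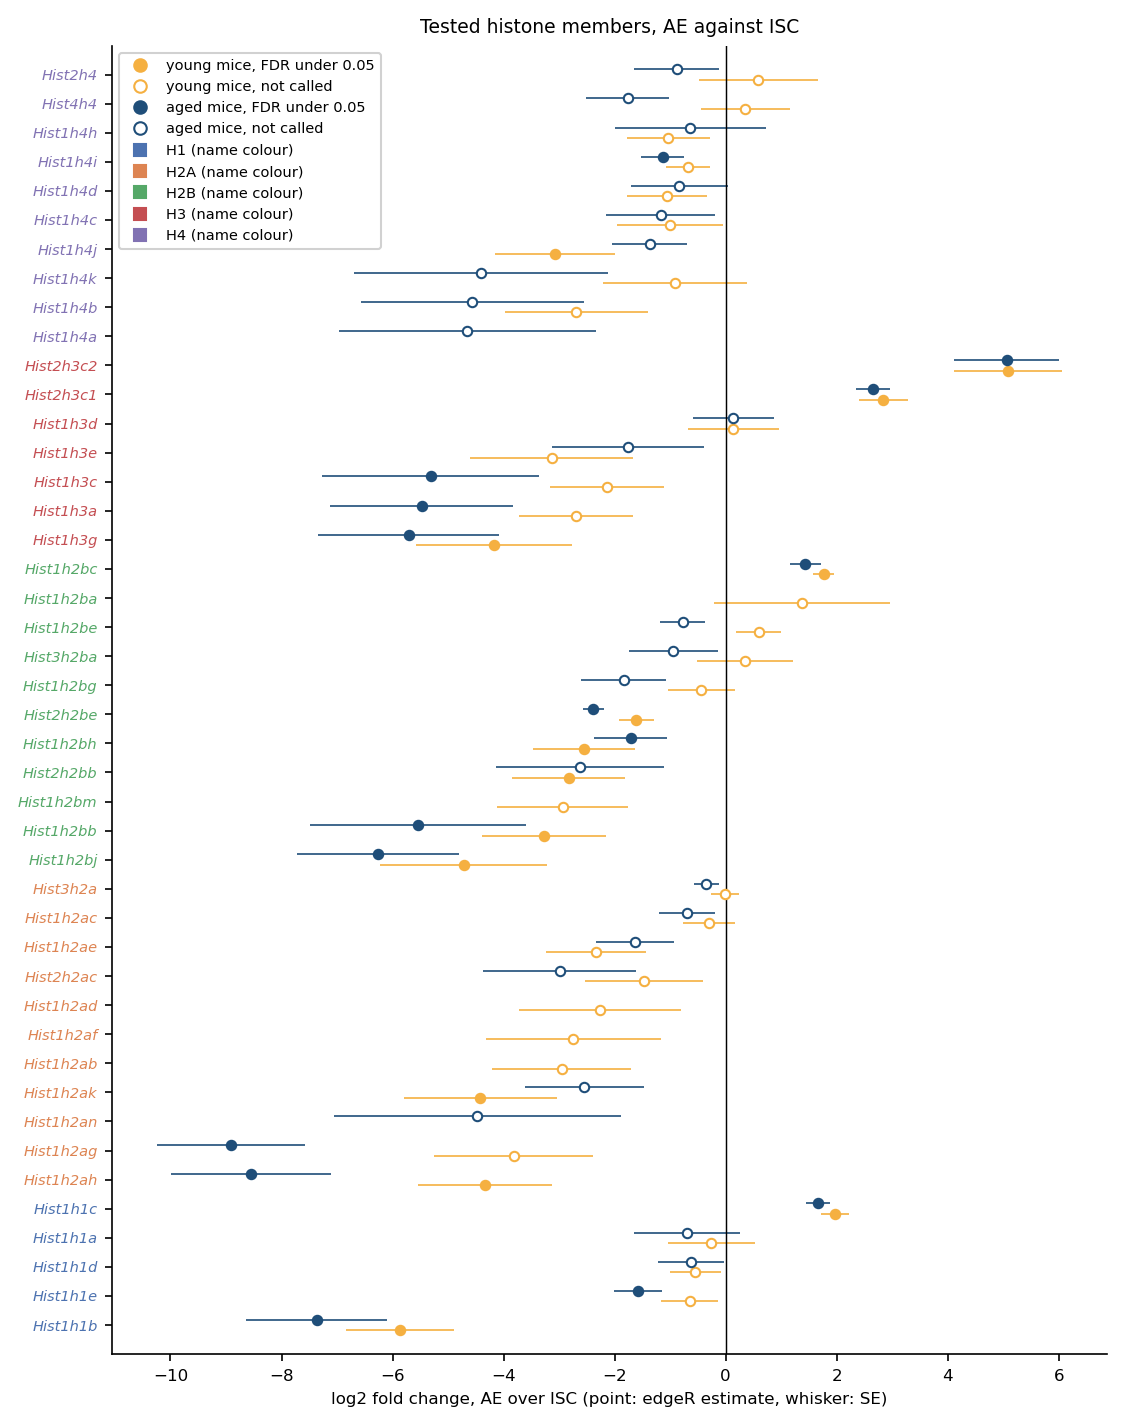
Log2 fold change of AE over ISC (x axis) with its SE for each histone member tested in young or aged mice (y axis, grouped by family), with filled points for calls at an FDR under 0.05. Hist1h1c, Hist1h2bc, Hist2h3c1 and Hist2h3c2 are the filled points right of 0 at both ages; fitted values of members at 0 in aged AE are no measure of the size of their fall.

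The members called higher in AE were the same 4 at both ages, namely Hist1h1c, Hist1h2bc, Hist2h3c1 and Hist2h3c2. In young mice Hist1h1c had 30.3, 32.3 and 44.1 CPM in ISC, against 109.6, 121.6 and 186 CPM in AE. Its aged libraries had 54.96, 58.8 and 37.5 CPM in ISC, against 143, 196 and 166 CPM in AE. Every AE library lay above every ISC library. The log2 difference was 1.97 ± 0.25 (SE, FDR 0.000524) in young mice and 1.67 ± 0.21 (FDR 8.76e-05) in aged mice.

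Hist1h2bc had 24.2, 28.3 and 35.9 CPM in ISC of young mice, against 110.98, 90.7 and 100.4 CPM in their AE. In aged mice its ISC libraries had 39.8, 47.3 and 19.99 CPM, against 109.99, 103 and 91.9 CPM in AE. Again the groups did not overlap, and aged ISC varied more than the other groups, with an SD of 14.1 CPM. The log2 difference was 1.77 ± 0.19 (FDR 0.000285) in young mice and 1.44 ± 0.28 (FDR 0.00131) in aged mice. Of the 50-base windows of its transcript, 30.6% also occur in transcripts of other loci, so some of its reads could not be placed uniquely.

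The other two were H3 genes of the Hist2 cluster. Hist2h3c1 had 1.85, 0.738 and 0.730 CPM in ISC of young mice, against 9.66, 6.95 and 7.04 CPM in their AE. In aged mice it had 1.04, 0.864 and 0.933 CPM in ISC, against 6.47, 6.18 and 6.33 CPM in AE. Every AE library was again above every ISC library. The log2 difference was 2.84 ± 0.44 (FDR 0.00114) in young mice and 2.65 ± 0.30 (FDR 3.69e-05) in aged mice. Its annotated exons lie wholly within those of Gm20634, whose counts were nearly the same, with young means of 1.14 CPM for ISC and 8.31 CPM for AE, so the values of these overlapping genes cannot be told apart.

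Hist2h3c2, whose transcript shares 63.5% of its 50-base windows with Hist2h3c1, was close to absent from ISC. In young mice it had 0, 0 and 2 counts in ISC, against 20, 11 and 153 in AE. In aged mice it had 1, 1 and 0 counts in ISC, against 19, 11 and 6 in AE. The counts give a 43.6-fold higher level in young AE, with a 95% exact interval of 11.9 to 363 that covers counting error only, and 44.8-fold in aged AE, with an interval of 11.5 to 384. The FDR was 0.00287 in young and 0.000986 in aged mice. Of the 184 counts in young AE, 153 came from the deepest library, replicate 3. The fitted log2 difference in young mice, 5.09 in all, ran from 4.55 without ISC replicate 2 to 8.39 without ISC replicate 3, which held both ISC counts. Through the shared windows its value is uncertain as well.

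**Figure D3:**
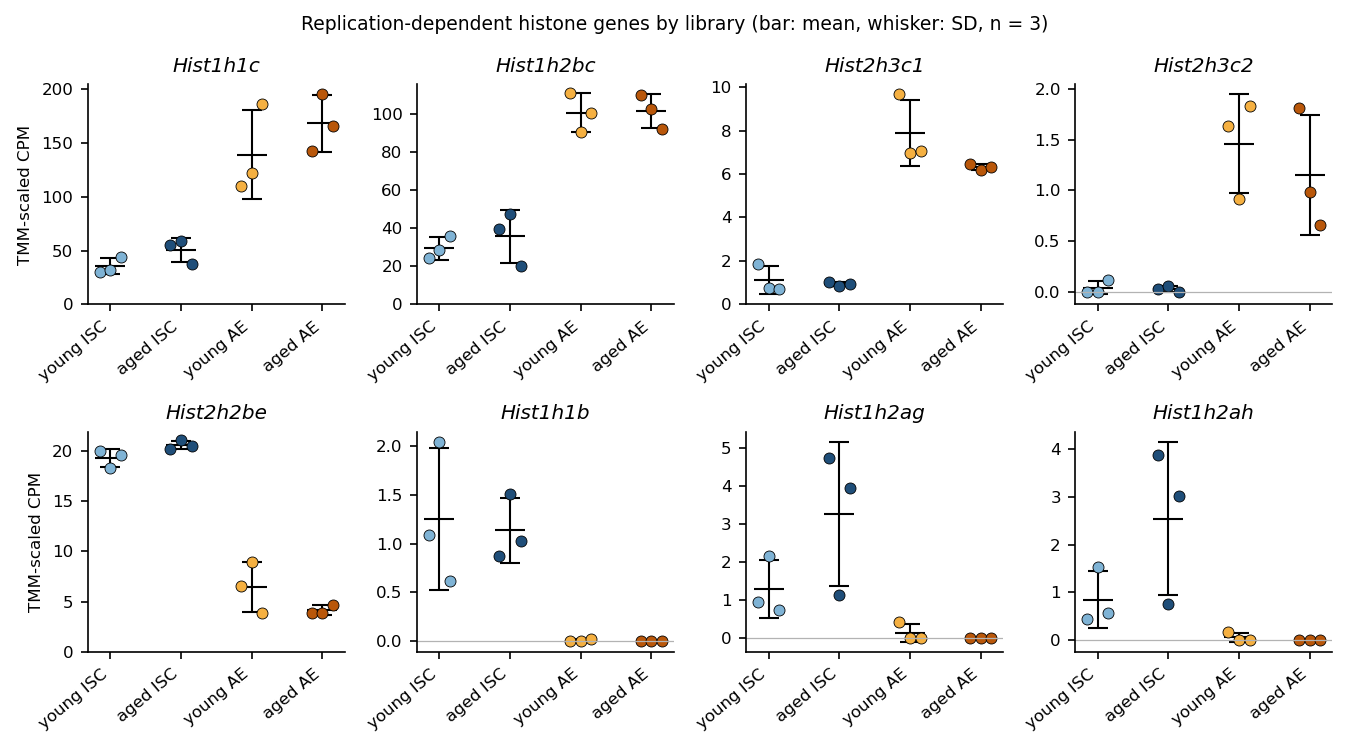
TMM-scaled CPM (y axis, linear) of 8 histone members in the 12 libraries, with points for libraries, long bars for group means and whiskers for the SD (n = 3). The top row shows the 4 members that were higher in AE at both ages, and the bottom row shows Hist2h2be, Hist1h1b, Hist1h2ag and Hist1h2ah, which were lower in aged AE and lay at 0 to 8.93 CPM in every AE library.

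Among H1 genes, the other members were not higher in AE. Hist1h1b, a linker histone known from dividing cells, had 17, 36 and 11 counts in ISC of young mice, against 0, 0 and 2 in their AE. In aged mice it had 31, 28 and 23 counts in ISC, against 0 in all 3 AE libraries. The 2 counts came from the library of 110794420 counts, in which 3 counts correspond to 0.0359 CPM. Its counts give a 67.6-fold lower level in young AE (95% exact interval 17.96 to 570, FDR 0.00149) and an at least 3.86-fold lower level in aged AE against 3 counts per library (FDR 0.00131). The fitted log2 difference in young mice, -5.87 in all, ran from -7.27 without AE replicate 3 to -5.36 without ISC replicate 2. None of its 50-base windows occurs in another transcript.

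In young mice Hist1h1e had 1.91, 2.56 and 1.07 CPM in ISC, against 0.737, 1.74 and 1.08 CPM in AE, which overlapped, with a log2 difference of -0.65 ± 0.52 (FDR 0.313). In aged mice it had 1.96, 2.105 and 1.82 CPM in ISC, against 0.571, 0.627 and 0.873 CPM in AE, and fell by 1.58 ± 0.43 on the log2 scale (FDR 0.00923). Its span overlaps that of Hist1h2be on the same strand, which leaves both uncertain. Hist1h1d was not called at either age, with log2 differences of -0.54 ± 0.47 and -0.63 ± 0.59. Family H1 thus held Hist1h1c, higher in AE at both ages, Hist1h1b, lower at both, and Hist1h1e, called lower in aged mice.

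In family H2A 10 members were tested in young and 8 in aged mice, and every one had a negative difference, of which 2 were called at each age. Hist1h2ag, Hist1h2ah and Hist1h2an were at 0 in every aged AE library and passed the filter through ISC. Their sign in aged mice was thus fixed by the filter. The share of negative differences over all genes was not computed, so the common sign is a description only. In young mice Hist1h2ag had 15, 38 and 13 counts in ISC, against 5, 0 and 0 in AE. Among aged libraries the counts were 169, 21 and 89 in ISC, against 0 in all 3 AE libraries. It was not called in young mice and was at least 11.1-fold lower in aged AE (FDR 0.000572). Its close copy Hist1h2ah had 7, 27 and 10 counts in ISC of young mice, against 2, 0 and 1 in their AE. In aged mice its ISC counts were 138, 14 and 68, against 0 in all 3 AE libraries. It was 30.97-fold lower in young AE (95% exact interval 9.93 to 156, FDR 0.0165), a call lost without young ISC replicate 2 (FDR 0.0728), and at least 8.68-fold lower in aged AE (FDR 0.00114). Its fitted log2 difference in young mice, -4.33 in all, ran from -5.94 without AE replicate 1 to -3.33 without AE replicate 3.

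These H2A genes are near-copies, with 78.9% of the 50-base windows of Hist1h2ag and 90.7% of those of Hist1h2ah found in transcripts elsewhere, so their values are uncertain. Hist1h2ak, called in young mice alone, had 19 counts over young ISC and 1 over young AE, a 40.1-fold lower level (95% exact interval 6.38 to 1667, FDR 0.0263). Its call was lost with the replicate block and in 5 of 6 fits that left out a library, and its fitted log2 difference ran from -6.50 without AE replicate 2 to -2.99 without AE replicate 3. Hist3h2a and Hist1h2ac were not called. Hist3h2a had 12.6 ± 1.80 CPM in ISC and 12.6 ± 2.90 CPM in AE of young mice (log2 difference -0.01 ± 0.24). In aged mice these were 14.9 ± 2.73 and 12.3 ± 2.32 CPM (-0.35 ± 0.22). Part of its transcript, 31.5% of the windows, overlaps Trim17. Hist1h2ac had log2 differences of -0.30 ± 0.47 and -0.70 ± 0.50.

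Family H2B held members that went both ways. Hist2h2be had 20.01, 18.3 and 19.6 CPM in ISC of young mice, against 6.55, 8.93 and 3.86 CPM in their AE. Its aged libraries had 20.2, 21.05 and 20.5 CPM in ISC, against 3.90, 3.85 and 4.69 CPM in AE. Its ISC libraries lay close together and every AE library was below them. The log2 difference was -1.61 ± 0.31 (FDR 0.00307) in young and -2.39 ± 0.19 (FDR 3.68e-06) in aged mice. No 50-base window of Hist2h2be occurs elsewhere. Hist1h2bc and Hist2h2be, both known for polyadenylated transcripts, thus differed in direction.

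Hist1h2bj had 23 counts over young ISC and 1 over young AE, a 48.6-fold lower level (95% exact interval 7.89 to 2000, FDR 0.0291), and 40 against 0 in aged mice, at least 1.77-fold lower (FDR 0.00630). The young call held in 2 of 6 fits that left out a library and in the fit with the replicate block (FDR 0.0428), and its fitted log2 difference ran from -6.79 without AE replicate 2 to -3.28 without AE replicate 3. Hist1h2bh fell by 2.56 ± 0.92 on the log2 scale in young mice (FDR 0.0453) and by 1.71 ± 0.66 in aged mice (FDR 0.0432), and both calls were lost with the replicate block. Hist1h2be was not called, with log2 differences of 0.59 ± 0.40 and -0.78 ± 0.41. Hist2h2bb in young mice and Hist1h2bb at both ages completed the H2B calls, all lower in AE.

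Apart from the H3 genes of Hist2, 1 H3 member was called lower in young mice, Hist1h3g, and 3 in aged mice, Hist1h3a, Hist1h3c and Hist1h3g. Hist1h3a had 22 counts over aged ISC and Hist1h3c 18, each against 0 over aged AE. Both of these calls were lost with the replicate block, as was that of Hist1h3g in young mice. Hist1h3g had 16 counts over young ISC and 1 over young AE, and 28 against 0 in aged mice, an at least 1.19-fold lower level (FDR 0.0157). Hist1h3d had log2 differences of 0.14 ± 0.82 and 0.14 ± 0.73, and Hist1h3e of -3.13 ± 1.47 (FDR 0.106) and -1.76 ± 1.38. In family H4, Hist1h4i was called in aged mice, with 6.51, 6.58 and 3.69 CPM in ISC and 2.38, 1.61 and 4.15 CPM in AE. It fell by 1.14 ± 0.39 on the log2 scale (FDR 0.0287), although the groups overlapped, and its call was lost in 4 of 6 fits that left out a library. In young mice its log2 difference was -0.68 ± 0.40 (FDR 0.186).

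Hist1h4j, another H4 gene, had 9, 3 and 11 counts in ISC of young mice, against 0, 0 and 7 in their AE. Its log2 difference was -3.08 ± 1.08 (FDR 0.0412), a call lost with the replicate block. In aged mice it was not called, at -1.37 ± 0.68 (FDR 0.101). Hist1h4d and Hist4h4 were not called at either age. Of the members listed as testis histones, Hist1h2aa had 0 counts throughout, Hist1h1t had 0 to 3 counts in a library, and Hist1h2ba had 18 counts in the deepest young AE library and 0 to 2 in the others. Hist1h2ba passed the filter in young mice through that library alone and was not called (log2 difference 1.37 ± 1.59). The 7 members called lower at both ages were Hist1h1b, Hist1h2ah, Hist1h2bb, Hist1h2bh, Hist1h2bj, Hist1h3g and Hist2h2be. They were 70% of the young and 58.3% of the aged calls of lower members. The like share over all genes was not computed, so these shares only describe the members. With the replicate block Hist1h2bb and Hist1h2bh lost their calls at both ages and Hist1h3g its call in young mice.

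The members were then set side by side by their transcript models. Of 22 members with over 100 annotated bases after the stem-loop, 20 were tested at each age. In young mice 3 of them were higher and 2 lower in AE, and in aged mice 3 were higher and 3 lower. Of 22 members with up to 100 bases, 11 were tested in young mice, with 0 higher and 2 lower, and 8 in aged mice, with 0 higher and 5 lower. Of the 23 without a stem-loop in the model, 11 were tested at each age, with 1 higher and 6 lower in young mice and 1 higher and 4 lower in aged mice. That class mixes models that end at the stop codon with the longer ones of Hist1h2bc and Hist2h2be. Over all genes tested, 27.7% were higher and 25.4% lower in young AE, and 30% and 34.1% in aged AE. Of the tested members 6 with a short model and 6 without a stem-loop had 0 counts in every aged AE library and passed the filter through ISC, against 0 with a long model, so no size is given for these classes. The long models were also the more abundant, with 62.1% of all member counts against 1.29% for the short ones and a median total over all libraries of 156.5 against 14 counts. A median of 19.2% of their 50-base windows occurred elsewhere, against 59.9% for the short ones. The parts of abundance and of unique placement in this pattern were not tested.

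**Figure D4:**
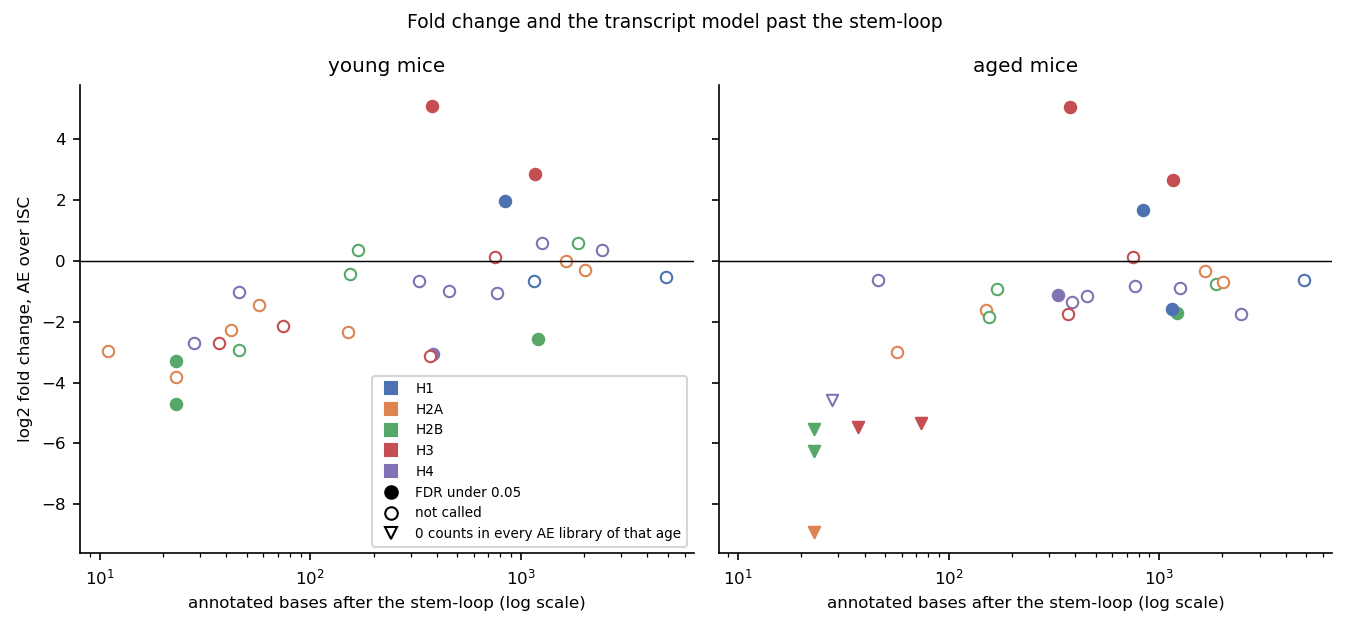
Log2 fold change of AE over ISC (y axis) against the annotated bases after the stem-loop (x axis, log scale) for tested histone members, in young (left) and aged mice (right). Filled points passed an FDR of 0.05 and triangles had 0 counts in every AE library of that age, so that their height is no measure of size; the 3 filled points above 0 at each age have 377, 840 and 1167 bases.

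Many H2A and H2B genes lie head to head, transcribed away from a shared stretch, and 13 such pairs of members, 1 of them of H2B and H3, were found 175 to 659 bases apart. Hist1h2ac and Hist1h2bc have 250 bases between their starts and differed in their calls: Hist1h2bc was called higher at both ages, while Hist1h2ac was called at neither. The difference between these genes was not tested. Hist1h2ag and Hist1h2bj have 269 bases between them and were both called lower in aged AE. Hist2h2ac and Hist2h2be have 238 bases between them and had log2 differences of -1.47 and -1.61 in young and -2.99 and -2.39 in aged mice, of which those of Hist2h2be were called. Neither Hist1h2ae nor Hist1h2bg, 175 bases apart, was called at either age. In the other pairs 1 member or both had too few counts to be tested.

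The 250 bases before the start of 61 members were matched in RefSeq on GRCm38.p6, and 6 had no match. The letters CCAAT, on either strand, were in 50 of 61 stretches (82%), against 33.8% of all 32851 RefSeq stretches of this length, and TATAAA in 29 (47.5%), against 12.4%. These are the letters of the CCAAT box and TATA box of many promoters, searched on both strands and each counted whether or not it shares a base with the other. The stretches below are of Hist1h2ac, called at neither age, Hist1h2ag, called lower in aged AE, and Hist2h3c2, called higher at both ages. They are written 5′ to 3′ on the strand of the gene, with CCAAT and TATAAA of either strand in capitals.
Hist1h2ac, chr13:23683960-23684209, minus strand, facing Hist1h2bc: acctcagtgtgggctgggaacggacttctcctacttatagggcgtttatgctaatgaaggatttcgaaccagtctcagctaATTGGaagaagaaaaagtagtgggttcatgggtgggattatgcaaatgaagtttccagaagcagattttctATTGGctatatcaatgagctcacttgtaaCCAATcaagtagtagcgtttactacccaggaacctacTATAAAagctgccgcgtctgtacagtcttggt
Hist1h2ag, chr13:22042950-22043199, minus strand, facing Hist1h2bj: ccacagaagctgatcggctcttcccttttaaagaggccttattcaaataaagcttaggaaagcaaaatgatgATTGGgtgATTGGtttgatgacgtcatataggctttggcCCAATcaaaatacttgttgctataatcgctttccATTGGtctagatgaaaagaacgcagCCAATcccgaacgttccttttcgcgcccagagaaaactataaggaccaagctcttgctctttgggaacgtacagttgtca
Hist2h3c2, chr3:96239128-96239377, minus strand: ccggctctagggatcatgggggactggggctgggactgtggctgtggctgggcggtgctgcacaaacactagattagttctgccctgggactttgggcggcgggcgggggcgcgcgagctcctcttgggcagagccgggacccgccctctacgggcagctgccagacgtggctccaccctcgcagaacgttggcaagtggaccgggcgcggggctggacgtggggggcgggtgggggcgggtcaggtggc
The stretches of both pairs hold CCAAT, that of the pair that differed in its calls and that of the pair called lower together in aged AE. The stretch of Hist1h2bc itself was not matched. Among the other members higher in AE, the stretch of Hist1h1c holds CCAAT, and those of Hist2h3c1 and Hist2h3c2 hold neither motif. The same is true of Hist1h4b, Hist1h4h, Hist1h4j and Hist4h4, which were not called higher in AE. Whether these motifs go with the direction in AE was not tested.

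Aged mice were compared with young mice in each cell type, the question the study was designed around. In ISC 46 members were tested and edgeR's quasi-likelihood test called 0, as it called 0% of all 15552 genes tested. DESeq2 called 0 members as well, and 58 genes over all tested. At an unadjusted p under 0.05 there were 3 members of 46, against 4.47% of all genes. The median log2 difference was 0.14 over the tested members and 0.01 over all genes, with 29 members above and 17 below 0. Of the 46 members tested, 5 were higher and 1 lower in aged ISC without overlap of the groups, against 8.86% of all genes. Since 0 genes were called in all, the 0 members called are nothing particular to the histones.

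The lowest unadjusted values in ISC were those of Hist1h2ah, Hist1h1c and Hist1h2ag. Hist1h2ah had 0.446, 1.53 and 0.561 CPM in young and 3.87, 0.756 and 3.02 CPM in aged mice, a log2 difference of 1.60 ± 0.66 (unadjusted p = 0.0397, FDR 1.00). Hist1h2ag had 0.956, 2.16 and 0.730 CPM in young and 4.74, 1.13 and 3.95 CPM in aged mice, a log2 difference of 1.37 ± 0.58 (unadjusted p = 0.0453). In both near-copies aged ISC replicates 1 and 3 were high, aged ISC replicate 2 was within the range of young ISC, and the groups overlapped. Hist1h1c had a log2 difference of 0.51 ± 0.21 (unadjusted p = 0.0417), also with overlapping groups, and Hist1h2bc one of 0.28 ± 0.30.

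In AE 24 members were tested and 43 were not, and edgeR called 0 members and 0% of all 16265 genes. DESeq2 called 0 members and 18 genes in all. At an unadjusted p under 0.05 there was 1 member of 24, against 4.97% of all genes. Of the 24 members, 1 was higher and 3 were lower in aged AE without overlap of the groups, against 10.9% of all genes. The median log2 difference was -0.32 over the tested members, against -0.04 over all genes. It was -0.24 with the 1 member at 0 in aged AE, Hist1h2ba, which has no bound, put at a log2 difference of 0. The lowest value was that of Hist1h2be, with 2.62, 2.56 and 1.60 CPM in young and 0.951, 1.08 and 0.982 CPM in aged mice. Its groups did not overlap, and its log2 difference was -1.13 ± 0.44 (unadjusted p = 0.0312, FDR 0.833).

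Next came Hist1h4j, at 2.52 ± 1.21 (unadjusted p = 0.0686), which rests on 7 counts over young AE and 9 over aged AE, and Hist2h2be, at -0.61 ± 0.36 (unadjusted p = 0.127). The abundant members differed little, with log2 differences of 0.29 ± 0.23 for Hist1h1c, 0.03 ± 0.15 for Hist1h2bc and -0.29 ± 0.25 for Hist2h3c1. Hist2h2be in ISC had one of 0.10 ± 0.14.

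**Figure D5:**
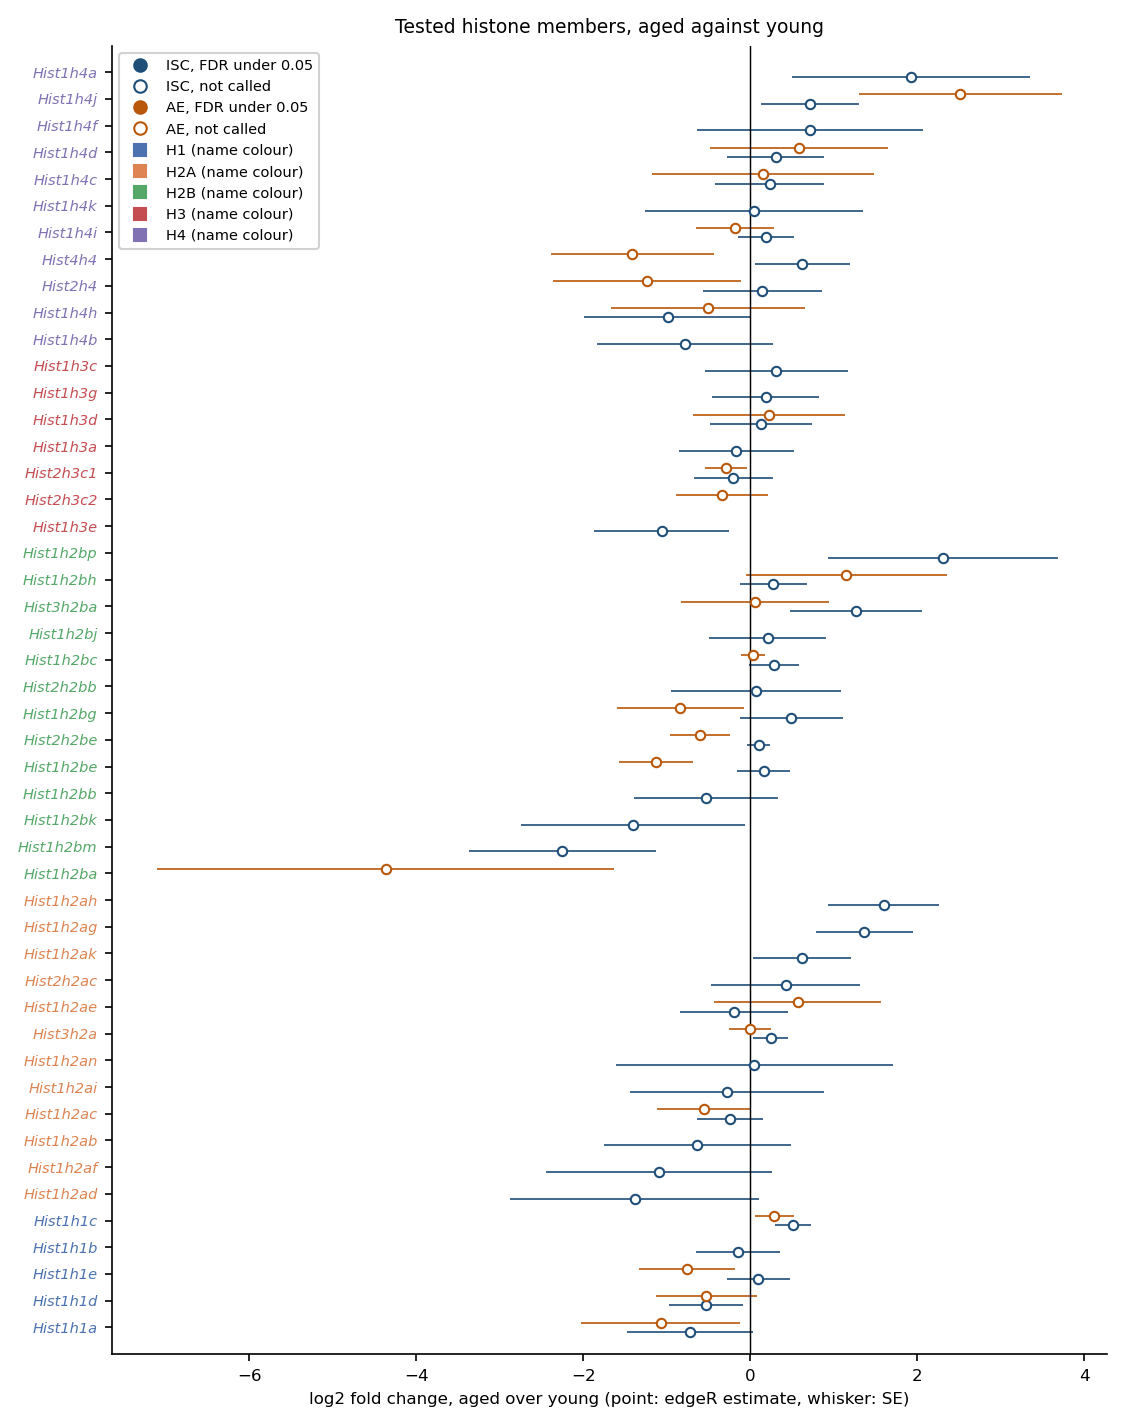
Log2 fold change of aged over young (x axis) with its SE for each histone member tested in ISC or AE (y axis, grouped by family). All points are open because 0 members were called in either cell type.

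Whether age acted differently in AE and ISC was tested as an interaction over all 12 libraries. Of 48 members tested 0 were called, against 0.00575% of all genes, which was 1 of 17377. DESeq2 called 0 members and 43 genes, and the replicate block 0 members and 21 genes. At an unadjusted p under 0.05 there was 1 member, against 4.36% of all genes. This was Hist1h2be, with a difference of age effects of -1.30 ± 0.51 on the log2 scale (unadjusted p = 0.0240, FDR 1.00). For Hist1h1c the difference was -0.23 ± 0.34 and for Hist1h2bc -0.26 ± 0.36. Of the 48 members 20 had 0 counts in every aged AE library, so their fitted differences follow from the zeros and no median is given.

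Genes that make, carry or replace these histones were read from lists. For the calls in each list below, the shares over all genes tested were 27.7% higher and 25.4% lower in young AE. In aged AE they were 30% and 34.1%. Of 18 genes for the 3′ end of histone mRNA, 1 was higher and 16 lower in young AE, and 0 were higher and 15 lower in aged AE, with medians of -1.28 and -1.48. Slbp, which binds the stem-loop, fell by 1.49 ± 0.24 on the log2 scale in young (FDR 0.00148) and by 1.63 ± 0.15 in aged mice (FDR 8.56e-06). The largest falls among the called genes in aged mice were those of Zfp473, which takes part in histone pre-mRNA processing (log2 difference -3.83), and Snrpe, an Sm protein (-2.50). Next were Eri1, an exonuclease that trims the stem-loop (-2.38), and Lsm11, a subunit of the U7 snRNP (-2.29). The gene higher in young AE was Xrn1, an exonuclease.

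Replication-independent histones are made outside S phase as well, mostly from polyadenylated mRNA. The list also holds H2afx, which has a stem-loop match in its transcript. Of its 11 genes 0 were higher and 5 lower in young AE, and 0 higher and 10 lower in aged AE, with medians of -0.72 and -0.99 (log2). In aged mice H2afy2 was at 0 in every AE library, and the log2 difference was -3.73 for Cenpa, the centromeric H3, -2.87 for H2afx and -2.25 for H2afz, all called. H2afy2 had 0.245 CPM in aged ISC, while 3 counts correspond to 0.269 to 0.327 CPM in an aged AE library. No size can be given for its fall, and it was not called in young mice (FDR 0.409). H3f3b, an H3.3 gene, had 469 and 538 CPM in ISC of young and aged mice, against 323 and 330.3 CPM in AE, and was called in aged mice alone (-0.78 ± 0.18, FDR 0.00406).

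Of 17 histone chaperones 1 was higher and 14 lower at each age, and in aged mice the log2 differences were -4.99 for Asf1b, -4.92 for Nap1l1, -4.87 for Chaf1b and -2.81 for Chaf1a. Of 30 S phase genes 29 were lower at each age, with medians of -3.12 and -4.08, among them Mcm3, Uhrf1, Mcm5 and Mcm2. Of 12 mitosis genes 12 were lower at each age, with medians of -2.81 and -4.12, among them Aurkb, Top2a, Cdk1 and Bub1. The S phase sum was 2307 to 3151 CPM in ISC, 266 to 302 CPM in 5 AE libraries and 700 CPM in young AE replicate 2, the library with the most stem cell transcripts. By age, 0 genes of these 5 lists were called in ISC or in AE, where 0% of all genes tested were called.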

How the data were processed

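The deposited table holds raw read counts per gene. The authors trimmed 50 bp single-end reads with Trim Galore 0.4.4, mapped them to GRCm38 with HISAT2 2.1.0 and counted uniquely mapped reads over merged exons in SeqMonk. Whether these counts used strand is not given in the sources used here. A second table of the authors' own DESeq2 results was not used. Columns were assigned to the group that their own names spell, since in 8 of 12 titles code and group differ. Libraries are numbered in the order of columns. Nothing ties a library to a named mouse, so p-values measure the spread between libraries. Replicate pairs differed by more than sampling noise.

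A gene entered a comparison with a summed count of 10 or more. Library sizes were corrected by TMM, and the test was edgeR 4.0.16 (quasi-likelihood, Benjamini-Hochberg FDR under 0.05) in R 4.3.3, with limma 3.58.1, and DESeq2 1.42.0 as an alternative. The fits were tested on simulated data. P-values were adjusted over all genes tested. Deviations from the group mean were correlated between ISC and AE libraries that share a code ( 0.121 to 0.287 in 6 of 6 pairs), and the code was taken to pair them. A group at 0 was bounded at 3 counts per library. Where the other group lay under that level, the member was given a log2 difference of 0 in the medians with bounds. Intervals are exact (Clopper-Pearson) and cover counting error only.

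Members named are the 4 most abundant per family, the 4 largest called rises and falls per comparison, the 3 lowest p-values per age comparison, the testis members and those with known poly(A) transcripts. From each other list the 4 largest called changes in aged mice were taken. A few further members were named after their values were seen, to complete short lists. The members and lists were chosen with earlier results of these data known. Stem-loops and 50-base windows come from GENCODE M21 and promoter stretches from RefSeq (GRCm38.p6).

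Alternatives were DESeq2, RLE and upper-quartile scaling, no filter or filterByExpr, a fit on all 4 groups, omission of each library in turn, and a replicate block.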

Additional observations from a re-analysis of the deposited data

How the results depend on the processing

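Of the counts of calls and the shares recomputed under the alternatives, 30 moved by over 1.5 times or beyond the replicate spread. Of the 30 calls of members in AE over ISC, 14 held in all 13 alternatives, and the others were lost 82 times in sum, by not passing the test or the filter. No value of a named member reversed. Upper-quartile scaling moved the median log2 difference of all genes to 0.03 (from 0.15) for young mice and -0.22 (from -0.13) for aged mice, and RLE scaling to 0.15 and -0.04, with the same 4 members higher in AE. In age comparisons 0 members were called under any alternative, while over all genes DESeq2 called 58 in ISC and 18 in AE, no filter 1 and 2, and the fit on all 4 groups 2 in ISC. For the difference of age effects DESeq2 called 43 genes and the replicate block 21. Leaving out 1 library gave 0 to 1 genes by age in ISC, 0 to 1 in AE and 0 to 3 for their difference. For AE over ISC, filterByExpr left 14 members tested and 8 called in young mice, and 16 tested and 10 called in aged mice, without Hist2h3c2. The paired fit with a replicate block called 9 members in young and 12 in aged mice. Leaving out 1 library gave 7 to 10 members in young mice (7 without ISC replicate 1 or 2, 9 without AE replicate 3) and 12 to 15 in aged mice. The 4 members higher in young AE were called in every alternative, as were Hist1h1b and Hist2h2be. With TMM-corrected library sizes the share of counts on members was 0.0126% and 0.0154% in young and aged ISC, and 0.0283% and 0.0304% in young and aged AE, which follows from scaling factors of opposite direction in the cell types; without 1 library the main shares ran over 0.0159% to 0.0168%, 0.0193% to 0.0224%, 0.0214% to 0.0229% and 0.0215% to 0.0229% in that order. The cause of the other changes was not tested. Depth limits the members with few counts, most of all in AE, where 12 to 30 members had over 3 counts in a library.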
